A study of Mus musculus with 8 samples.

Results

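Cells keep free metal ions scarce by moving them across membranes and binding the rest, and the genes described here carry out those steps for zinc, manganese, iron, copper and magnesium in the mouse colon. They were taken by symbol: members of the carrier families Slc11, Slc30, Slc31, Slc39, Slc40 and Slc41, together with Mt1, Mt2, Fth1, Tfrc, Heph, Cybrd1, Atp7a, Atp7b and Hmox1. Of the 42 symbols of the RefSeq gene table that fit this choice, 37 were matched by a probe set, which is 37 of the 14351 genes measured. The 37 genes were read by 39 probe sets, since Slc39a5 and Slc41a3 had more than 1. Cybrd1, Slc30a2, Slc30a3, Slc39a9 and the pseudogene Slc39a1-ps were not analysed here. Membership followed from the symbols, and the symbols were chosen with earlier results of these data known.

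Slc30 proteins (ZnT) lower zinc in the cytosol by moving it out of the cell or into compartments, and Slc39 proteins (ZIP) bring zinc and, for some members, manganese or iron into the cytosol. Metallothioneins are small cysteine-rich proteins that hold zinc and copper, and their genes are switched on by the zinc sensor MTF-1. In gut epithelium iron enters from the lumen through Slc11a2 (DMT1) and leaves to the blood through Slc40a1 (ferroportin) with the oxidase hephaestin (Heph). Copper enters through Slc31a1 and leaves through Atp7a. The Slc41 family carries magnesium.

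RNA came from the colon of adult mice and was measured on Affymetrix arrays. The 3 WT arrays are from wild type females. The 3 arrays labelled STAT5b-/- are from mice deficient in STAT5b, a transcription factor of growth hormone and cytokine signals, of which replicate 1 is labelled male and the others female. REF is a further wild type female sample whose purpose the labels do not state. Its 2 deposited columns were equal to within 2.47e-07 of their value, below any sampling noise, and count as 1 sample. The labels name no mouse strain, no age beyond adult and no allele. Whether each replicate is its own animal is not stated either, and the p-values therefore reflect the spread between these arrays, part or all of which may be technical.

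Values below are the deposited ratios, in which each probe set is divided by its own WT mean. A ratio of 1 is the WT mean, and the division removes the level of one gene against another, so no carrier could be called abundant or scarce, and the tissue could not be checked against the level of colon markers. Array medians over all 26180 probe sets were 0.948 to 1.04, and the number of arrays limits the precision. Stat5b itself read 1.08, 0.930 and 0.993 in WT and 1.16, 1.17 and 1.26 in the arrays labelled STAT5b-/-, with REF at 1.18, and so was no lower where it is labelled deficient. Which stretch of the gene the mutation removes is not stated, and every direction here depends on the labels.

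The comparison asks how metal handling genes differ when STAT5b is lacking. Of the 12 measured zinc and manganese carriers of the cell surface, Slc30a10, Slc30a1, Slc39a4, Slc39a5 and Slc39a14 were higher in the arrays labelled STAT5b-/-. Both metallothioneins, hephaestin, ferritin heavy chain and the copper pump Atp7a were higher too. The magnesium carriers Slc41a1 and Slc41a2, the zinc importer Slc39a10 and the transferrin receptor Tfrc were lower. In all, 10 of the 37 genes rose and 4 fell (limma fitted over all genes, Benjamini-Hochberg adjusted p under 0.05). That is 27.0% higher and 10.8% lower, where 13.3% of all 14351 genes were called higher and 8.42% lower, or 21.7% in either direction. Changes of at least 2-fold that also passed were seen in 8 of the 37 genes, 21.6%, against 8.61% of all genes. The groups did not overlap in 22 of the 37, 59.5%, against 41.5% of all genes. The median log2 difference of the 37 genes was -0.11, and that of all genes 0.007. Quantile normalization of the ratios left 2 genes higher, Slc30a10 and Slc39a5, and 1 lower, Slc41a2, with the signs of all 14 kept. That step gives every array the same distribution. The SD of the log2 ratios over all probe sets was 0.289 to 0.363 in the WT arrays and 0.646 to 0.737 in the arrays labelled STAT5b-/-. Without STAT5b-/- replicate 2, 7 were higher and 2 lower, and the 4 falls also became 2 without STAT5b-/- replicate 1 or WT replicate 3. The share called over all genes was 2.77% after quantile normalization and 12.0% without STAT5b-/- replicate 2, against 21.7% in the main fit.

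**Figure D1:**
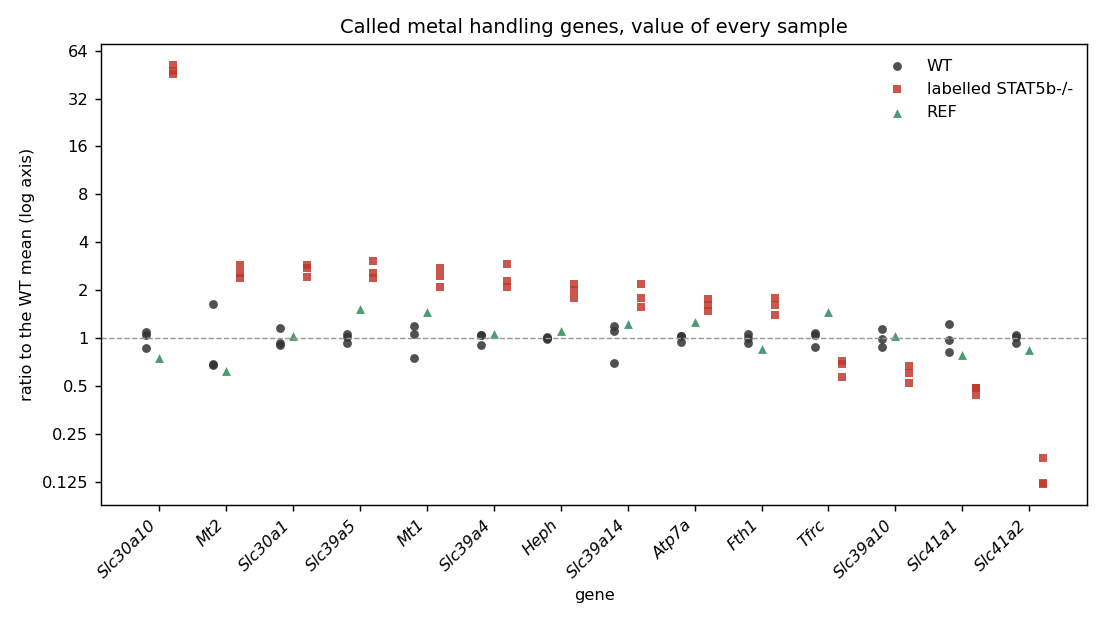
Ratio to the WT mean (log axis) of the 14 metal handling genes that passed the test, for every sample: 3 WT arrays (circles), 3 arrays labelled STAT5b-/- (squares) and REF (triangle). Slc30a10 lies between 45.4 and 52.1 in the arrays labelled STAT5b-/-, Slc41a2 between 0.122 and 0.177, and in none of the 14 genes do the WT arrays and the arrays labelled STAT5b-/- overlap.

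Both measured zinc and manganese exporters of the plasma membrane rose. Slc30a10, which exports manganese at the cell surface, had ratios of 1.09, 0.868 and 1.04 in WT, 47.6, 52.1 and 45.4 in the arrays labelled STAT5b-/- and 0.751 in REF. The 3 high values lie close together, at 48.3 ± 3.41 (SD, n = 3), and REF lies below every WT array. The log2 difference was 5.60 ± 0.14 (SE), a 48.5-fold rise (limma adjusted p = 1.1e-05). Among the 14351 genes it ranked 5 by the size of the rise and 3 by p. Slc30a1, the zinc exporter of the plasma membrane, had ratios of 0.935, 0.911 and 1.15 in WT, 2.78, 2.87 and 2.42 in the arrays labelled STAT5b-/- and 1.03 in REF. The groups were well apart and REF lay among the WT arrays. Slc30a1 rose by 1.43 ± 0.15 on the log2 scale, or 2.69-fold (limma adjusted p = 0.00125). The 95% intervals of their log2 differences, 5.27 to 5.93 for Slc30a10 and 1.08 to 1.78 for Slc30a1, lie far apart.

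The 10 measured ZIP carriers of the plasma membrane did not move as a group: 3 rose, 1 fell and 6 did not pass, with a median log2 difference of -0.08. That is 40% called against 21.7% of all genes. Slc39a4, the luminal zinc importer whose loss causes acrodermatitis enteropathica, had ratios of 1.05, 0.906 and 1.05 in WT, 2.28, 2.92 and 2.08 in the arrays labelled STAT5b-/- and 1.06 in REF. All values labelled STAT5b-/- were above 2, while REF stayed near WT, and the rise was 1.27 ± 0.16 on the log2 scale (limma adjusted p = 0.00292). Slc39a5, a zinc importer of the basolateral side, had ratios of 1.05, 1.01 and 0.929 in WT, 3.05, 2.38 and 2.55 in the arrays labelled STAT5b-/- and 1.53 in REF. It rose by 1.41 ± 0.14 (limma adjusted p = 0.00114). REF also lay above the WT arrays, so that against REF as the only control the log2 difference was 0.79 and did not pass (limma adjusted p = 0.0702). Its probe sets NM_028051_at and NM_028092_at read alike, with ratios of 2.31 to 2.95 and 2.45 to 3.15 in the arrays labelled STAT5b-/-.

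Slc39a14, which carries zinc, manganese and non-transferrin iron, had ratios of 1.2, 0.695 and 1.11 in WT, 2.19, 1.79 and 1.57 in the arrays labelled STAT5b-/- and 1.23 in REF. The WT arrays spread widely, and the rise of 0.91 ± 0.24 passed narrowly (limma adjusted p = 0.0375). Its call ended without WT replicate 3 (adjusted p = 0.0650) or without STAT5b-/- replicate 1, 2 or 3 (0.127, 0.106 and 0.0689), and against REF alone the log2 difference was 0.57. Slc39a10, a zinc importer of many tissues, went the other way, with ratios of 0.875, 0.980 and 1.14 in WT, 0.603, 0.520 and 0.669 in the arrays labelled STAT5b-/- and 1.04 in REF. It fell by 0.74 ± 0.16 on the log2 scale (limma adjusted p = 0.0180). That call ended without WT replicate 3 (adjusted p = 0.0583) or STAT5b-/- replicate 1 or 2 (0.0617 and 0.0731).

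The other plasma membrane ZIP carriers did not pass. Slc39a6, the closest relative of Slc39a10, had a log2 difference of -0.39 ± 0.13 with groups that did not overlap (limma adjusted p = 0.0724). Slc39a1, Slc39a3 and Slc39a8 lay near WT, with log2 differences of 0.03, -0.03 and -0.13. Their 95% intervals were -0.27 to 0.33, -0.56 to 0.50 and -0.45 to 0.18, so a 2-fold change lies outside each. Slc39a2 and Slc39a12 had -0.43 ± 0.22 and -0.41 ± 0.34. In Slc39a12 the WT arrays themselves ran from 0.679 to 1.61, with WT replicate 2 the highest.

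Both metallothionein genes rose. Mt1 had ratios of 1.19, 0.751 and 1.06 in WT, 2.09, 2.74 and 2.45 in the arrays labelled STAT5b-/- and 1.46 in REF. Mt2 had ratios of 0.690, 0.677 and 1.63 in WT, 2.87, 2.57 and 2.40 in the arrays labelled STAT5b-/- and 0.623 in REF. REF thus lay above the WT arrays for Mt1 and below them for Mt2, and WT replicate 3 alone held the WT mean of Mt2 up. The log2 differences were 1.30 ± 0.21 for Mt1 and 1.51 ± 0.34 for Mt2 (limma adjusted p = 0.00618 and 0.0219). The Mt2 call ended without WT replicate 1 (adjusted p = 0.0597) or STAT5b-/- replicate 1, 2 or 3 (0.0860, 0.0752 and 0.0641). Without WT replicate 3 the Mt2 difference was 1.93. The genes are neighbours on chromosome 8 and are close in sequence, and cross-reading between their probe sets was not tested.

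Because Mt1, Mt2 and Slc30a1 are classical genes of the zinc sensor MTF-1, the sequences before their start sites are shown, with that of Slc30a10, the member with the largest rise. Each is the 250 bases upstream of the RefSeq start on GRCm38.p6, plus strand, 5′ to 3′. Capitals mark matches to the core of the metal response element, searched as TGCACNC and TGCGCNC on both strands.
Mt1, chr8:94178839-94179088: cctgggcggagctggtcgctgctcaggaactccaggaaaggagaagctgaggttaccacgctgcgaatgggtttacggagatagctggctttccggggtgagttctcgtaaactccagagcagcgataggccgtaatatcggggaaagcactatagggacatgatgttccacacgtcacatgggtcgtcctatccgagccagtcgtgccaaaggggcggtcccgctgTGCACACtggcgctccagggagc
Mt2, chr8:94172368-94172617: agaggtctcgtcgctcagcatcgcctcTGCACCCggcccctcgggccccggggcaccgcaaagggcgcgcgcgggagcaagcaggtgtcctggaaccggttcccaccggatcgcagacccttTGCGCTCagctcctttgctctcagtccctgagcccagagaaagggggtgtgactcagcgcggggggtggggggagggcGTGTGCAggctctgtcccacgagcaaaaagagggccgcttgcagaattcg
Slc30a1, chr1:191906531-191906780: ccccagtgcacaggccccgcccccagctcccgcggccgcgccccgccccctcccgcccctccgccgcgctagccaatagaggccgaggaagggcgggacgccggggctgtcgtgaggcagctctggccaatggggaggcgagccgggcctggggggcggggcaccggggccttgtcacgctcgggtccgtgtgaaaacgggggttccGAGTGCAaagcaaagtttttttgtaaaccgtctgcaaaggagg
Slc30a10, chr1:185454598-185454847: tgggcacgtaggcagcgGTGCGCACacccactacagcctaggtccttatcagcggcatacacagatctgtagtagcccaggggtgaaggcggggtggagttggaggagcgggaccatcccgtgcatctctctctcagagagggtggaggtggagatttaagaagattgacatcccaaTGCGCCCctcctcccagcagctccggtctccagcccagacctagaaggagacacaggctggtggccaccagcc

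Over the whole RefSeq window of 300 bases, which adds the 50 bases after the start, Mt1 held 3 matches, Mt2 4, Slc30a1 2 and Slc30a10 3. In Slc30a10, 2 of the 3 overlap, on opposite strands at the same place. Among all 32851 windows of this length, 25.7% held at least 1 match, 7.11% at least 2, 1.97% at least 3 and 0.517% at least 4. Of the 10 members that rose, 7 had a window, and 6 of these held a match. A member with 2 windows was counted by the one with more matches, while the shares above count single windows, so the units differ. A match was also present in 3 of the 4 members that fell and in 9 of the 18 members with a window that did not pass, among them Slc30a4 with 3. A match describes these letters only. Binding was not measured.

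Carriers that load zinc into vesicles and the secretory pathway did not pass the test. Slc30a4 of endosomes had ratios of 0.897 to 1.09 in WT, 1.27 to 1.33 in the arrays labelled STAT5b-/- and 0.850 in REF. The difference of 0.38 ± 0.12 missed the threshold (limma adjusted p = 0.0726), and passed with trended, robust variances (0.0497) or with REF among the wild type samples (0.0329). Slc30a8, the zinc carrier of insulin granules, was uneven in WT, at 0.551, 1.75 and 0.695, and had a log2 difference of -0.70 ± 0.46. Slc30a9, linked to mitochondria, had 0.14 ± 0.14.

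All 6 measured carriers of the endoplasmic reticulum, Golgi and their vesicles had log2 differences below 0, from -0.47 to -0.11 with a median of -0.36, and 0 of the 6 passed at the adjusted threshold with limma, while 4 had an unadjusted p under 0.05. Over all genes 35.1% had such a p and 49.4% lay below 0, and this grouping by place in the cell was made after the values were seen. Slc30a5 and Slc30a7, which supply zinc to enzymes such as alkaline phosphatase in the secretory pathway, had differences of -0.38 ± 0.12 and -0.47 ± 0.14 (limma adjusted p = 0.0672 and 0.0562). Slc30a7 had ratios of 1.07, 0.961 and 0.965 in WT, 0.689, 0.657 and 0.833 in the arrays labelled STAT5b-/- and 1.07 in REF, so REF lay with WT. Slc39a7, which releases zinc from the endoplasmic reticulum, had -0.41 ± 0.15 (limma adjusted p = 0.0979), and its ratios were 0.656 to 0.826 against 0.894 to 1.10 in WT. Slc39a11 had -0.35 ± 0.14 (limma adjusted p = 0.125, and 0.0471 without WT replicate 2), Slc39a13 -0.31 ± 0.21 and Slc30a6, the partner of Slc30a5, -0.11 ± 0.13. With REF counted among the wild type samples, Slc30a5, Slc30a7 and Slc39a7 passed as lower (limma adjusted p = 0.0395, 0.0234 and 0.0489). Markers of secretory cells moved in the same arrays: 6 of 8 measured goblet cell markers fell and 0 rose, with median ratios of 0.285 to 0.444 in the arrays labelled STAT5b-/- and 0.959 to 1.10 in WT, and 6 of 9 B and plasma cell markers fell, with 0.194 to 0.422 and 0.868 to 1.07. Enteroendocrine markers went both ways, with 2 of 10 risen and 3 fallen, and median ratios of 0.892 to 1.06 against 0.874 to 1.21 in WT. These medians hide large single changes, with log2 differences from -6.61 for Insl5 to 4.69 for Nts. Insl5 lay at or near the lowest deposited ratio, 0.01, in the arrays labelled STAT5b-/-. Absorptive colonocyte markers, with 7 of 9 risen, had median ratios of 1.78 to 1.88 and 0.937 to 1.02. Beside these marker counts, 13.3% of all genes were called higher and 8.42% lower. The part of cell composition in any carrier's value was not tested, and in whole tissue fewer cells of a type and less RNA per cell cannot be told apart.

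**Figure D2:**
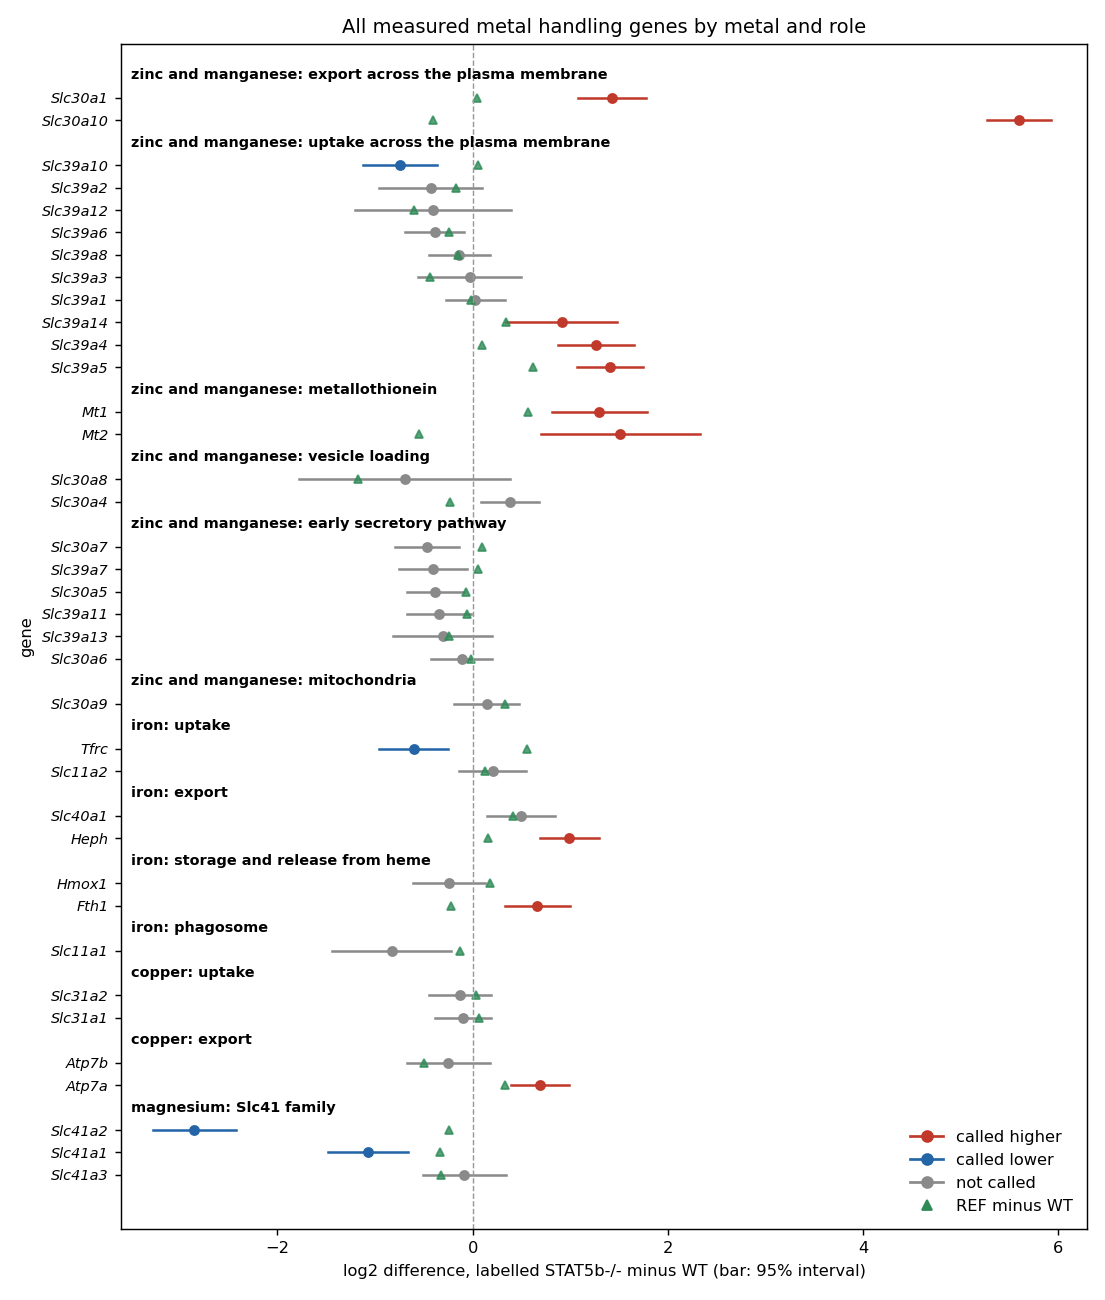
Log2 difference between the arrays labelled STAT5b-/- and WT for all 37 measured genes, by metal and role, with the 95% interval of the limma fit (3 arrays per group), and REF minus WT as triangles. Red and blue genes passed as higher or lower. The 6 carriers of the early secretory pathway all lie left of 0 without passing, and Slc30a10 stands alone at 5.60.

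For iron, 2 of the 7 measured genes rose and 1 fell, or 42.9% called against 21.7% of all genes. On the export side, Heph, the copper-dependent oxidase that works with ferroportin, had ratios of 1.00, 0.983 and 1.01 in WT, 2.2, 2.0 and 1.79 in the arrays labelled STAT5b-/- and 1.11 in REF. The WT arrays agreed within a few hundredths, and the rise was 0.99 ± 0.13 on the log2 scale (limma adjusted p = 0.00276), or 1.99-fold. Against REF alone the difference was 0.84 (adjusted p = 0.0508). Slc40a1, ferroportin itself, had ratios of 1.01, 1.04 and 0.951 in WT and 1.38, 1.22 and 1.66 in the arrays labelled STAT5b-/-. Its difference of 0.49 ± 0.15 did not pass (limma adjusted p = 0.0559), though it did after median centring (0.0439) and with trended, robust variances (0.0425). REF, at 1.33, lay within the range of the arrays labelled STAT5b-/-, so a wild type sample reached the same value.

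Fth1, the heavy chain of the iron store ferritin, had ratios of 1.01, 1.06 and 0.931 in WT, 1.39, 1.61 and 1.78 in the arrays labelled STAT5b-/- and 0.857 in REF. It rose by 0.66 ± 0.14 (limma adjusted p = 0.0168), and the call ended without WT replicate 3 (adjusted p = 0.0597) or STAT5b-/- replicate 2 or 3 (0.0691 and 0.0714), and against REF alone (0.0524). Tfrc, the receptor that takes up transferrin-bound iron, had ratios of 1.08, 0.877 and 1.04 in WT, 0.684, 0.571 and 0.718 in the arrays labelled STAT5b-/- and 1.47 in REF. It fell by 0.61 ± 0.15 (limma adjusted p = 0.0306). REF lay on the other side of WT, and against REF alone the difference was -1.17. The Tfrc call was among the least firm: it ended without WT replicate 1 or 3 (adjusted p = 0.0853 and 0.0917) and without STAT5b-/- replicate 1, 2 or 3 (0.0775, 0.108 and 0.0659), and with trended, robust variances (0.0606). Ferritin and the transferrin receptor are regulated mainly after transcription by iron regulatory proteins, which bind ferritin mRNA to block its translation and transferrin receptor mRNA to stabilise it. Markers of erythroid cells, which are rich in Tfrc, had 0 of 6 called with limma and 1 with an unadjusted p under 0.05, against 35.1% of all genes, with median ratios of 0.785 to 0.953 in the arrays labelled STAT5b-/- and 0.780 to 1.33 in WT.

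Slc11a2, which brings ferrous iron into the cell, had ratios of 1.11 to 1.21 in the arrays labelled STAT5b-/- and 0.844 to 1.11 in WT, and its difference of 0.21 ± 0.14 did not pass (limma adjusted p = 0.375, 95% interval -0.14 to 0.55). Slc11a1, its relative in macrophage phagosomes, had ratios of 0.829, 1.39 and 0.780 in WT, 0.624, 0.443 and 0.581 in the arrays labelled STAT5b-/- and 0.882 in REF. The groups did not overlap, and the difference of -0.83 ± 0.26 did not pass (limma adjusted p = 0.0621), although it did with REF among the wild type samples (0.0371). Macrophage markers fell in 7 of 9 and rose in 0, where 8.42% of all genes were called lower and 13.3% higher. Their median ratios were 0.468 to 0.718 in the arrays labelled STAT5b-/-, 0.912 to 1.15 in WT and 1.03 in REF. WT replicate 2 was the highest WT array for these markers and for Slc11a1. It was also the highest WT array for goblet, enteroendocrine, B and plasma cell, erythroid and fibroblast markers, and had the highest array median, 1.04. The part of macrophages in the Slc11a1 value was not tested. Hmox1, the inducible enzyme that frees iron from heme, had a log2 difference of -0.24 ± 0.15 (limma adjusted p = 0.323), with ratios of 0.756 to 0.934 against 0.850 to 1.11 in WT.

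Of the 4 copper genes, 1 rose, or 25% called, near the 21.7% of all genes. Atp7a, the pump that sends copper out of gut cells and is lost in Menkes disease, had ratios of 0.947, 1.03 and 1.02 in WT, 1.77, 1.61 and 1.47 in the arrays labelled STAT5b-/- and 1.26 in REF. The groups were apart, with REF between them, and the rise was 0.69 ± 0.13 (limma adjusted p = 0.0101). Against REF alone it was 0.36 and did not pass (adjusted p = 0.277). Atp7b, the related pump of liver, lost in Wilson disease, had -0.25 ± 0.18, and its ratio in REF, 0.697, was below all 6 arrays of the compared groups. The importers Slc31a1 and Slc31a2 had -0.10 ± 0.12 and -0.13 ± 0.13, with 95% intervals of -0.38 to 0.19 and -0.44 to 0.19.

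The magnesium carriers of the Slc41 family gave the largest falls. Slc41a2 had ratios of 1.05, 1.02 and 0.932 in WT, 0.122, 0.122 and 0.177 in the arrays labelled STAT5b-/- and 0.846 in REF. The values labelled STAT5b-/- are far below every wild type value, and the fall was 2.85 ± 0.18 on the log2 scale, a ratio of WT over STAT5b-/- of 7.23 (limma adjusted p = 0.000247). Slc41a1, which sends magnesium out of cells, had ratios of 1.22, 0.813 and 0.966 in WT, 0.483, 0.485 and 0.437 in the arrays labelled STAT5b-/- and 0.782 in REF. It fell by 1.08 ± 0.17 (limma adjusted p = 0.00648), while REF lay just under the lowest WT array. Slc41a3, a mitochondrial member, had -0.09 ± 0.18 with a 95% interval of -0.51 to 0.34, and both of its probe sets lay between 0.819 and 1.06 in the arrays labelled STAT5b-/-. The family thus spread from an unpassed difference near 0 to a 7.23-fold fall.

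REF gives the distance of a further wild type sample, as 1 sample against 3. For REF over WT, 0 of the 37 genes passed with limma, 1 had an unadjusted p under 0.05, and 0.00% of all 14351 genes passed. The 1 was Slc39a5, with a log2 difference of 0.62. REF lay outside the range of the 3 WT arrays in 26 of the 37 genes, 48.4% being the share over all genes. Within the range of the arrays labelled STAT5b-/- it lay in 6 of the 37, against 29.9% of all genes, and in 0 of the 14 called genes. The called genes were picked for groups that lie apart, so this last count gives no support to the calls. A fit with REF as the only control sets 3 arrays against 1, takes its spread from the arrays labelled STAT5b-/- and assumes that REF varies as they do. In it 6 of the 14 called genes passed: Slc30a10, Slc30a1, Slc39a4, Mt2, Tfrc and Slc41a2. Among the 8 that did not were Mt1, with a log2 difference of 0.73 (limma adjusted p = 0.0912), and Slc41a1, with -0.74 (0.0518). REF shares the WT arrays with the main comparison, so the values are set side by side and not compared further.

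Further genes of the same pathways were taken from lists of iron, heme, copper, zinc and manganese, and Nrf2 genes. Of the 94 genes listed, 81 were measured, of which 19 rose and 5 fell, 29.6% called against 21.7% of all genes, with a median log2 difference of 0.08. Genes of iron handling were mostly not called: 1 of 28 rose and 2 fell, or 10.7% called, with a median of 0.04. Abcg2, which exports heme precursors and drugs, rose by 1.28 ± 0.14, while transferrin (Trf) fell by 1.23 ± 0.15 and ceruloplasmin (Cp), the plasma ferroxidase related to Heph, by 0.77 ± 0.13 (limma adjusted p = 0.00173, 0.00237 and 0.00743). Cp had ratios of 0.654, 0.549 and 0.560 in the arrays labelled STAT5b-/-, opposite to Heph.

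Heme genes rose in 4 of 15 and fell in 0, or 26.7% called, near the 21.7% of all genes. The 4 were the biliverdin reductases Blvrb and Blvra (1.37 ± 0.15 and 0.43 ± 0.12), Alas1, the first enzyme of heme synthesis (1.36 ± 0.22), and the constitutive heme oxygenase Hmox2 (0.52 ± 0.12), with limma adjusted p of 0.00167, 0.0438, 0.00655 and 0.0208. Copper genes rose in 3 of 12 and fell in 1, or 33.3% called against 21.7% of all genes. Sco1 and Cox11, which put copper into cytochrome oxidase, rose by 0.76 ± 0.16 and 0.75 ± 0.19. Ccs, the copper chaperone of Sod1, rose by 0.91 ± 0.26, and the secreted copper enzyme Lox fell by 1.34 ± 0.32 (limma adjusted p = 0.0167, 0.0344, 0.0468 and 0.0249). In the same arrays 8 of 10 fibroblast markers fell, where 8.42% of all genes were called lower. Their median ratios were 0.445 to 0.564 against 0.892 to 1.08 in WT, and their part in the Lox value was not tested.

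The list of zinc, manganese and magnesium genes had 5 of 16 risen and 1 fallen, or 37.5% called against 21.7% of all genes. Trpm6, the magnesium channel of colon and kidney, had ratios of 1.06, 1.05 and 0.887 in WT, 9.77, 7.97 and 6.59 in the arrays labelled STAT5b-/- and 1.59 in REF. It rose by 3.01 ± 0.18 (limma adjusted p = 0.000199), opposite in direction to Slc41a1 and Slc41a2. The lysosomal channel Mcoln1 rose by 1.51 ± 0.13, and the zinc enzymes Car1 and Car2, carbonic anhydrases of colonocytes, by 1.62 ± 0.24 and 0.58 ± 0.11. Car4, a carbonic anhydrase on the same list, went the other way, with -0.63 ± 0.25. Its groups did not overlap, and it did not pass (limma adjusted p = 0.123). The Golgi manganese carrier Tmem165 fell by 0.62 ± 0.14 (limma adjusted p = 0.0207). Mtf1, named after its value was seen because it is the zinc sensor, had a log2 difference of 0.07 ± 0.19 and did not pass (limma adjusted p = 0.843).

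Nrf2 and genes it controls, a programme of defence against oxidants that also includes Hmox1, rose in 6 of 10 and fell in 1, with a median log2 difference of 0.94. That is 70% called against 21.7% of all genes. Srxn1, G6pdx, Gclc and Nqo1 rose by 1.36 ± 0.14, 1.11 ± 0.12, 1.81 ± 0.20 and 1.91 ± 0.22, with limma adjusted p from 0.00121 to 0.00205. Slc7a11, the cystine importer, fell by 1.79 ± 0.21 (limma adjusted p = 0.00197). Hmox1, with its difference of -0.24, and Fth1, which rose by 0.66, are also known targets of this factor. Nrf2 activity was not measured, and its part in these values was not tested.

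**Figure D3:**
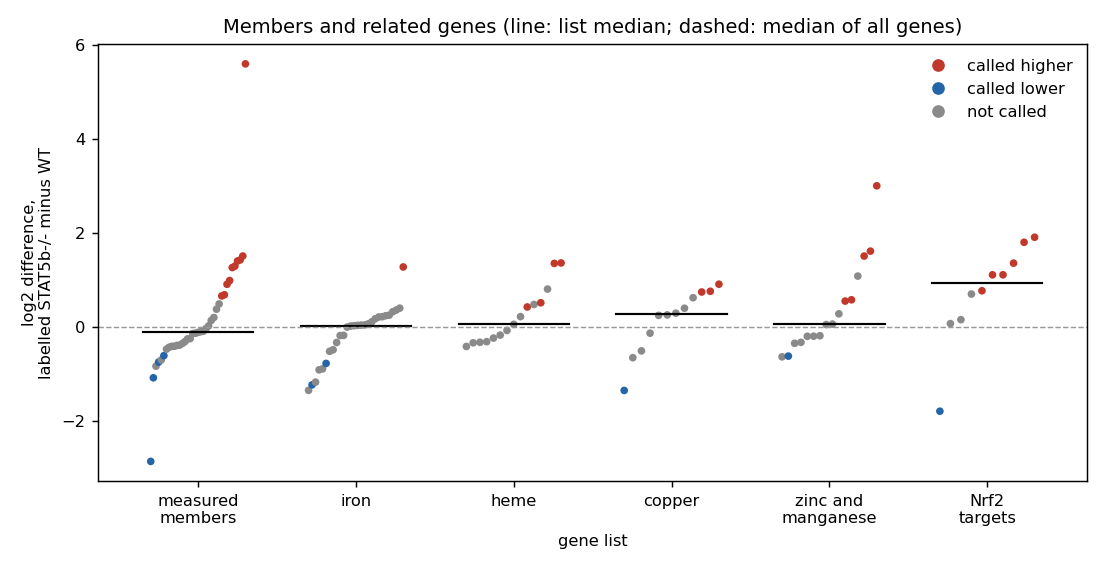
Log2 difference between the arrays labelled STAT5b-/- and WT (3 arrays per group) for the 37 measured members and 5 lists of related genes, each point a gene, with the median of each list as a line and the median of all genes dashed. The Nrf2 list has the highest median, 0.94, and the members span from -2.85 for Slc41a2 to 5.60 for Slc30a10.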

How the data were processed

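The deposited table gives linear ratios to the mean of the 3 WT arrays, made by the authors: that mean is 1 in every probe set to within 1.87e-07. The submitters' processing notes name RMA and give no version, and the array type is not stated in the sources used here. Per the labels' protocols, 100 ng of total RNA per sample was amplified and labelled with biotin. Probe set accessions were matched without version to RefSeq (GRCm38.p6, names and order only): 15228 of 26180 matched 1 symbol, 0 several and 10952 none.

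Values were put on the log2 scale without a pseudocount, and probe sets of a gene averaged. WT and STAT5b-/- arrays were fitted with limma 3.58.1 (lmFit, eBayes) in R 4.3.3 over all 14351 genes, with Benjamini-Hochberg adjustment and a threshold of 0.05. REF against WT was fitted likewise. Values are ratios, or log2 differences ± SE. Folds come from means of log2 ratios. Ratios do not allow dim probe sets to be filtered. The fit was tested on simulated data.

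Members and lists were chosen with earlier results of these data known. Members past the threshold are given for every sample, others where their metal or place in the cell is described. From each related list at most 4 genes in each direction, by smallest p, are named. The grouping by role was made after the values were seen. Alternatives were quantile normalization, median centring, the probe set of a gene with the highest mean ratio, leaving out probe sets at 0.01, a pseudocount of 0.1, trended and robust variances, a replicate block, REF as wild type, and leaving out each array.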

Additional observations from a re-analysis of the deposited data

How the results depend on the processing

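Of the 14 called genes, Slc30a10 and Slc41a2 kept their call under all 15 alternatives, 9 kept it whichever array was left out, and 0 changed sign under any of them. Quantile normalization had the largest effect: 2 genes stayed higher (Slc30a10, at 3.14, and Slc39a5) and 1 lower (Slc41a2), among related genes 3 and 2, and over all genes 158 and 239 (39.8% of all calls higher, 61.2% as reported). It forces 1 distribution on ratios that, divided by the WT mean, spread less in WT (log2 SD 0.289 to 0.363) than in the arrays labelled STAT5b-/- (0.646 to 0.737). With REF alone as the control, added after the data were seen, 4 were higher and 2 lower (11 and 3 among related genes). With REF counted among the wild type samples 11 were higher and 8 lower. Leaving out 1 array gave 7 to 10 higher and 2 to 5 lower, and among related genes 13 to 19 higher and 3 to 7 lower. Without STAT5b-/- replicate 1, the array labelled male, only females were compared, and 8 were higher and 2 lower. The calls of Slc39a14, Mt2, Slc39a10 and Tfrc ended in that fit. The total of 14 fell to 9 without STAT5b-/- replicate 2, and the 4 falls to 2 without WT replicate 3 or without STAT5b-/- replicate 1 or 2. With a replicate block 9 were higher and 3 lower, and 13 and 5 among related genes. The share called over all genes moved as well, from 21.7% as reported to 14.2% with the block. It was 24.6% with REF among the wild type samples, and 12.0% to 24.7% with 1 array left out. Fth1 (adjusted p = 0.0593) and Tfrc (0.0520) lost their calls under the block. Correlations of deviations between arrays of the same number were 0.036, -0.098 and -0.19, and between arrays of unlike number -0.14 to 0.22. With 3 arrays per group, they cannot settle whether the numbers pair the samples. The cause of the shifts between settings was not tested. The remaining settings gave 10 to 12 higher and 3 or 4 lower. The number of arrays limits what can be seen, and signal over background is not known for ratios.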
